A study of Mus musculus with 12 samples.

Results

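Interferon response genes are the genes that cells switch on when interferons, the secreted antiviral cytokines, bind their receptors. A set of 40 such mouse genes, given by name, was followed through the 12 libraries, out of 38481 genes that the deposited transcript counts cover. Of the 40 genes, 37 had at least 1 read and 30 passed the count filter of the test, which 13247 genes passed in all. The cells were C2C12, a mouse myoblast line that can fuse into muscle fibres, and the labels name no added interferon or virus. They carried 1 siRNA sequence for 3 days, either against Crebl2, which encodes a small bZIP protein, or against Renilla luciferase (Luc), a target that mouse cells lack. For the last 12 h the medium held 20 nM rapamycin, which inhibits the kinase complex mTORC1, or ethanol, its solvent. The 4 groups of 3 libraries were the Luc siRNA in ethanol, the Luc siRNA in rapamycin, the Crebl2 siRNA in ethanol and the Crebl2 siRNA in rapamycin. Separate cultures are not stated for the 3 libraries of a group, and p-values here measure only how libraries differ, which may be technical.

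Type I interferons signal through the receptor chains IFNAR1 and IFNAR2 and the kinases JAK1 and TYK2 to a complex that includes STAT2 and IRF9 and binds the interferon-stimulated response element (ISRE) in the promoters of responding genes. Interferon gamma has a receptor of its own, and its target genes often carry a gamma-activated site (GAS). The products sense foreign nucleic acid, block viral translation and replication, modify proteins with ISG15 or ADP-ribose, and feed peptides into antigen presentation, and many are also made at a low level in the absence of infection.

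Promoter windows from RefSeq (GRCm38.p6, 250 bases before to 50 bases after a gene's start, 300 bases) were found for 31 of the 40 genes. The letters GAAANNGAAA, an ISRE core, were searched on both strands and occurred in the windows of 14 of the 31 genes (45.16%), against 3.99% of 27025 genes with a window. The letters TTCNNNGAA, a GAS core, occurred in 9 of the 31 genes (29.03%), against 9.55% of all genes with a window. A match is a description of the letters and not evidence of binding. The windows of 6 genes that carry the results below are shown 5′ to 3′ on the gene's strand, with each match in capitals: 5 genes that fell with the Crebl2 siRNA in both media, 3 with an ISRE match and 2 without, and Rsad2, which fell most with rapamycin. Matches in capitals that read TTTCNNTTTC are the ISRE core on the opposite strand.
Ddx58: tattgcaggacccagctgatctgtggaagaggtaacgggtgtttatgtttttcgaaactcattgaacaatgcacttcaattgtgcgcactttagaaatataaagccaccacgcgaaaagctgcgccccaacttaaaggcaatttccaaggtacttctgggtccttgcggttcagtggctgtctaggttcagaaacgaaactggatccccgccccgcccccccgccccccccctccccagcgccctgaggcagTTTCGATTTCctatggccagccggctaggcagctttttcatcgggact
Dtx3l: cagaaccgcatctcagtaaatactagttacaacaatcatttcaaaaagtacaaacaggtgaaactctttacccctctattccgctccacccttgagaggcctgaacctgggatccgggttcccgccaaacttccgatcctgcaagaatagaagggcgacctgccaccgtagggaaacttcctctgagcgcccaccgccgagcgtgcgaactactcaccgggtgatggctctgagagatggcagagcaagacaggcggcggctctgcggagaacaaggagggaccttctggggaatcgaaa
Gbp2: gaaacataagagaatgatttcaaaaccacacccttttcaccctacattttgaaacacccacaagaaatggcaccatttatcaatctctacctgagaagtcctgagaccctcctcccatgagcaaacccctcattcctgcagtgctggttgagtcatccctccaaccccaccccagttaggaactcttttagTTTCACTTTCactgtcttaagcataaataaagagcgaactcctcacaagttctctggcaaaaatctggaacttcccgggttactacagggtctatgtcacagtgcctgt
Gbp7: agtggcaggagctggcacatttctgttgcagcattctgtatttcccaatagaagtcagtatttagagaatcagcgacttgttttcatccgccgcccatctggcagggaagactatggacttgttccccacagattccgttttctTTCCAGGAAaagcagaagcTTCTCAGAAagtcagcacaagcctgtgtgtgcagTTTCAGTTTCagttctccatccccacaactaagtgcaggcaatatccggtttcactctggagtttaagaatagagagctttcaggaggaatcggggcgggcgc
Parp12: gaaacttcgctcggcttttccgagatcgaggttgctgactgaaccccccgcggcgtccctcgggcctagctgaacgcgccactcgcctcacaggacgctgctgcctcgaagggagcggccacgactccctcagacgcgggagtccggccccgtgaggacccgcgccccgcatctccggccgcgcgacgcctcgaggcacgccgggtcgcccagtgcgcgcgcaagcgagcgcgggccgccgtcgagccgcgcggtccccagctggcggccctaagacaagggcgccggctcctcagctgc
Rsad2: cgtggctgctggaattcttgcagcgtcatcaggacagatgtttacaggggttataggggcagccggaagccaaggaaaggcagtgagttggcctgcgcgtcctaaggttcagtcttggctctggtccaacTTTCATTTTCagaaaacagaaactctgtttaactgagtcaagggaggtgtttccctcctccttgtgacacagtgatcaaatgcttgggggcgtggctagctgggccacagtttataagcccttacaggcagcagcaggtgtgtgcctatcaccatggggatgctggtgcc
These windows lie at chr4:40239776-40240075 (minus strand) for Ddx58, chr16:35938978-35939277 (minus) for Dtx3l, chr3:142620413-142620712 (plus) for Gbp2, chr3:142530086-142530385 (plus) for Gbp7, chr6:39118300-39118599 (minus) for Parp12 and chr12:26456403-26456702 (minus) for Rsad2. The ISRE match nearest the start begins 59 bases before it in Gbp2, 53 in Gbp7 and 120 in Rsad2, and in Ddx58 it begins 3 bases into the transcript. Gbp7 also has 2 GAS matches, the nearer 87 bases before the start. Of the 9 genes that fell with the Crebl2 siRNA in both media and have a window, Ddx58, Gbp2 and Gbp7 hold the ISRE core, Psmb8 holds a GAS core, and Dtx3l, Oasl2, Parp12, Psmb9 and Samd9l hold neither. No 2 matches overlap in the windows shown.

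The libraries held 33404087 to 42891015 counts each, and levels are given as CPM, the read count of a gene scaled to library size by TMM. The targeted gene Crebl2 read 23.8, 25.3 and 26.2 CPM with the Luc siRNA and 4.87, 7.41 and 6.02 CPM with the Crebl2 siRNA in ethanol, a fall by 75.7%. In rapamycin it read 37.5 ± 2.09 CPM against 9.70 ± 0.862 CPM (SD, n = 3), a fall by 74.1%, and the groups did not overlap in either medium. All 10 listed myoblast markers were measured, with Des (desmin) at a mean of 1510 CPM and Myod1, the myogenic transcription factor, at 232 CPM. The summed level of the 10 markers was 5130 to 5500 CPM in Luc ethanol, 3700 to 3980 CPM in Luc rapamycin, 4690 to 5320 CPM in Crebl2 ethanol and 4250 to 4420 CPM in Crebl2 rapamycin. Myog, which encodes the differentiation factor myogenin, fell with the Crebl2 siRNA from 203 ± 22.5 to 20.1 ± 4.19 CPM in ethanol and from 74.5 ± 6.13 to 8.96 ± 2.48 CPM in rapamycin (SD, n = 3; log2 fold change -3.33 ± 0.15 and -3.06 ± 0.17, edgeR adjusted p = 7.4e-10 and 3.3e-09). Mymk, the gene of the fusion protein myomaker, fell by 2.35 ± 0.13 and 2.16 ± 0.17 on the log2 scale (edgeR adjusted p = 5.8e-09 and 1.6e-07). Of the 10 markers 4 fell with the Crebl2 siRNA in ethanol and 3 fell and 3 rose in rapamycin, and their part in the changes below was not tested. A list of 9 leukocyte markers summed to 1.74 to 2.99 CPM over all libraries, most of it Lyz2, and was 2.64 to 2.85 CPM in Luc ethanol against 2.19 to 2.30 CPM in Crebl2 ethanol, and 2.24 to 2.99 CPM in Luc rapamycin against 1.74 to 2.10 CPM in Crebl2 rapamycin. Of the 9 markers 2 passed the count filter, Lyz2 and Cd68, and they went opposite ways with the Crebl2 siRNA. Lyz2 fell in rapamycin (log2 fold change -0.50 ± 0.15, edgeR adjusted p = 0.018). The mean of Cd68 was higher by 6.2% in ethanol and by 23.3% in rapamycin, and Cd68 passed in neither. The part of these markers in the changes below was not tested. Tyrobp and Cd3e, which are fully countable, had 1 read each in all 12 libraries. Endothelial markers summed to at most 0.270 CPM and epithelial markers to at most 0.580 CPM.

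The deposited counts do not measure all 40 genes alike. Reads that overlap several listed transcripts are missing, so a gene with several listed transcripts is counted only on bases that belong to a single one, here called its countable share. All 23 genes with 1 listed transcript were fully countable and tested, whereas the 10 untested genes all had several. Stat2, a subunit of the ISRE-binding complex, was countable on 0.1% of its exonic bases and had 0 reads. Ifi27 (0.0% countable) and the very large E3 ligase gene Rnf213 (1.0%) also had 0 reads. The other untested genes were Adar (RNA editing, 2.1%), Trim25 (the E3 ligase that ubiquitinates RIG-I, 3.3%), Parp10 (3.7%), Rtp4 (4.5%), Tap1 (peptide transport, 11.5%), Gbp3 (16.8%) and Parp9 (26.6%), with 4 to 87 reads in all libraries together. Nothing can be said here of their expression. Among tested genes the share was low for Irf9 (16.8%), Irf7 (22.4%), Ifih1 (33.9%), Irf1 (37.1%) and Gbp7 (55.5%), and 8 tested genes lay below the filter rate of 0.268 CPM in at least 1 of the 12 libraries, namely Ifih1, Irf1, Irf7, Ifi44, Usp18, Oas1a, Zbp1 and Psmb8. All 3 libraries of a group reached it only in the 2 Luc groups for Zbp1 and Psmb8, and only in Luc rapamycin for Oas1a.

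**Figure D1:**
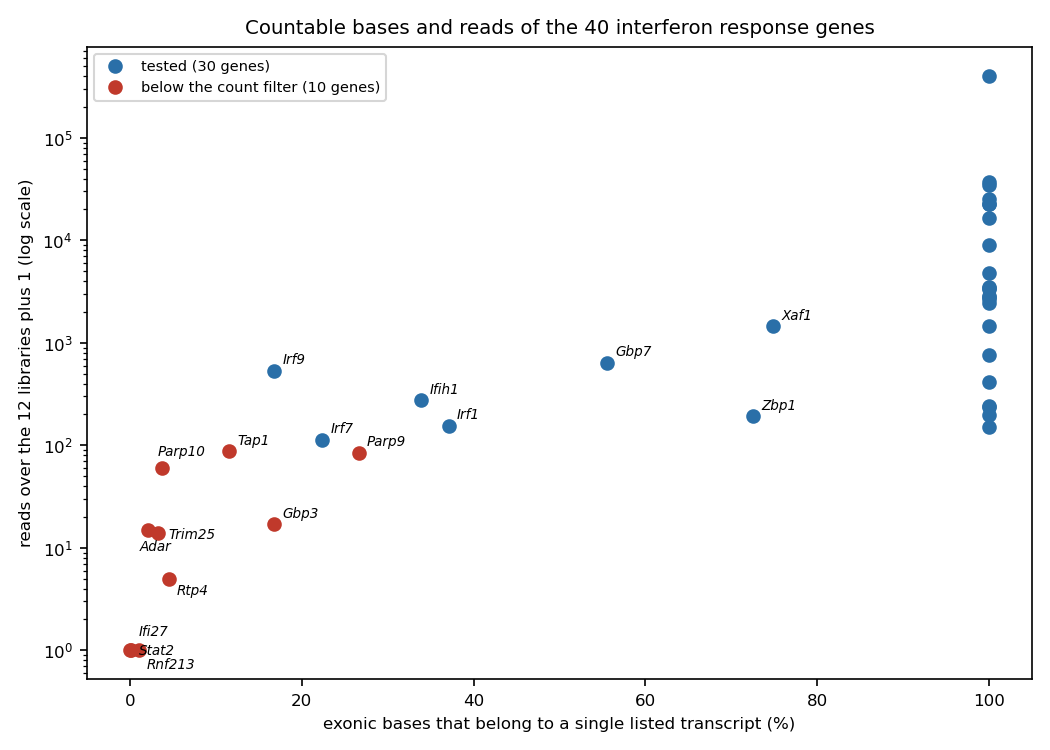
Reads over the 12 libraries plus 1 (log scale) against the percentage of exonic bases that belong to a single listed transcript, for each of the 40 interferon response genes. The 10 genes below the count filter all lie at a countable share of at most 26.6%, and the 23 genes with 1 listed transcript were fully countable.

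The plot of countable bases shows that the untested genes all had a countable share of at most 26.6%. The tested Irf9 (16.8%) and Irf7 (22.4%) lay in the same range. Per kilobase of countable sequence, B2m, the light chain of MHC class I, stood far above the rest at 1040 CPM. Ifi35 followed at 36.9, Bst2 at 25.0, Parp12 at 23.7, Eif2ak2 at 19.3, Ifi27l2a at 15.6, Ddx58 at 14.5 and Ifit2 at 13.1 CPM per countable kilobase. Isg15 read 8.37 and the lowest tested gene, Oas1a, read 0.176 CPM per countable kilobase. Ifnb1, the interferon beta gene, had 2 reads in all libraries at full countability, Ifng had 28, and Ifna2, Ifna4, Ifnl2 and Ifnl3 had 0.

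With the Crebl2 siRNA the interferon response genes that changed were mostly lower. In ethanol 14 of the 30 tested genes fell and 1 rose, and in rapamycin 16 fell and 0 rose. For the 0 rises by edgeR, the count was also 0 at an unadjusted p under 0.05 and 0 by DESeq2, and it was 1 (Ifit1) without Luc rapamycin library 3. The genes that fell in both media include Ifi27l2a, Parp14, Parp12 and Dtx3l, the RNA sensor gene Ddx58, and the guanylate-binding protein genes Gbp2 and Gbp7. The share that fell was 46.7% in ethanol, where 38.4% of all 13247 genes changed, 17.0% lower and 21.4% higher. It was 53.3% in rapamycin, where 33.1% of all genes changed, 16.8% lower and 16.3% higher. The 40 genes were chosen with earlier results of these data known, and what that choice adds to these shares was not tested. Calls throughout are from edgeR's quasi-likelihood test, with p-values adjusted by Benjamini and Hochberg's method across the whole table and a threshold of 0.05. Of the 22 genes that reached the filter rate in every library, 12 fell and 1 rose in ethanol, and 13 fell and 0 rose in rapamycin. The median log2 fold change of the 30 genes was -0.32 in ethanol and -0.43 in rapamycin, against 0.01 and -0.01 over all tested genes. These are bulk samples, so fewer cells expressing a gene and less RNA per cell cannot be told apart. The 2 siRNA contrasts share no library, and 12 genes fell in both, which is 85.7% of those that fell in ethanol and 75.0% of those that fell in rapamycin. Over all genes these shares were 66.6% and 67.1%.

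**Figure D2:**
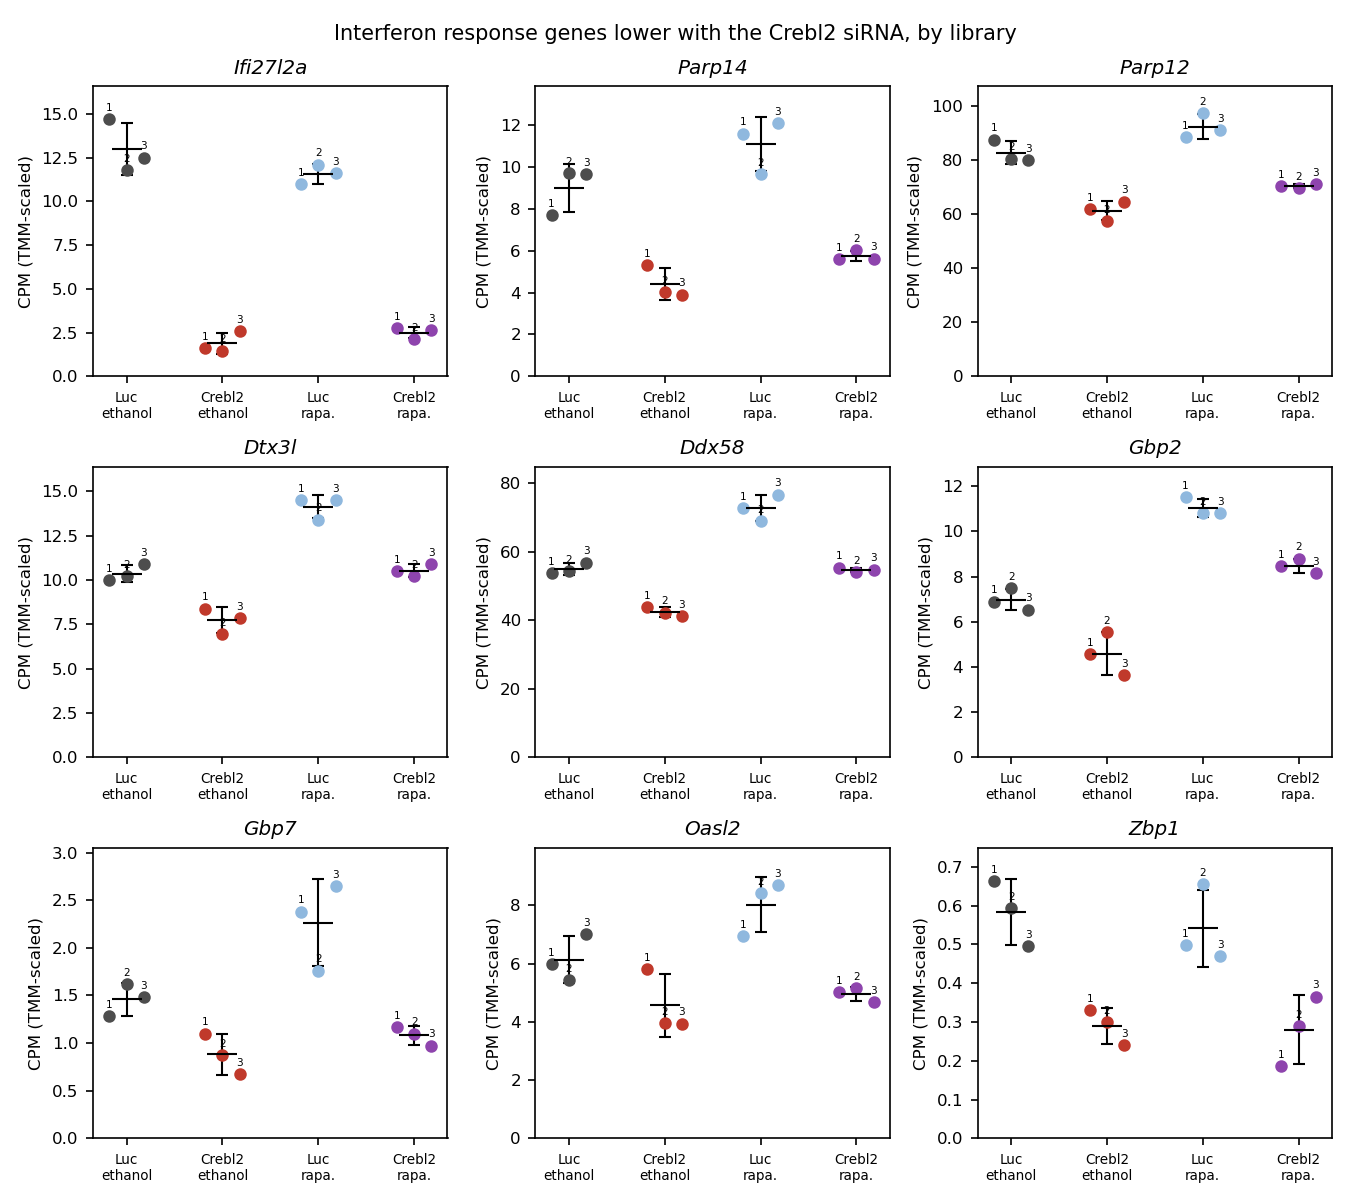
CPM (TMM-scaled) in each library for 9 interferon response genes, with the replicate number beside each point, and the mean and SD of 3 libraries as bars. For Ifi27l2a, Parp14, Parp12, Dtx3l, Ddx58, Gbp2, Gbp7 and Zbp1 the Crebl2 libraries lie below the Luc libraries in the same medium, while for Oasl2 the ethanol groups overlap.

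The largest fall was that of Ifi27l2a, an interferon-induced gene for a small hydrophobic protein (chr12:103442167-103443680, minus strand). It read 14.7, 11.8 and 12.5 CPM with the Luc siRNA and 1.61, 1.47 and 2.59 CPM with the Crebl2 siRNA in ethanol. In rapamycin it read 11.0, 12.1 and 11.6 CPM against 2.74, 2.12 and 2.62 CPM. The groups lay far apart in both media, and rapamycin did not separate them. The log2 fold change was -2.77 ± 0.17 (SE, edgeR adjusted p = 8.7e-09) in ethanol and -2.21 ± 0.16 (edgeR adjusted p = 8.2e-08) in rapamycin, and without any single library it stayed between -3.07 and -2.08. Ifi27l2a has close relatives in the same gene cluster, among them the uncountable Ifi27, and how reads shared with them were assigned is not given in the sources used here.

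The ADP-ribosylation genes fell together, in that all 3 tested members were lower in both media. Parp14, a mono-ADP-ribosyltransferase with macrodomains (chr16:35832874-35871544, minus strand), read 7.70, 9.70 and 9.65 CPM with the Luc siRNA and 5.30, 4.02 and 3.91 CPM with the Crebl2 siRNA in ethanol. In rapamycin Parp14 read 11.6, 9.65 and 12.1 CPM against 5.60, 6.04 and 5.63 CPM. Its groups did not overlap, with log2 fold changes of -1.03 ± 0.13 (edgeR adjusted p = 2.3e-05) and -0.95 ± 0.13 (edgeR adjusted p = 4.6e-05). Parp12, another mono-ADP-ribosyltransferase and one of the more abundant genes of the set, read 87.6, 80.6 and 80.0 against 61.9, 57.5 and 64.7 CPM in ethanol. In rapamycin Parp12 read 88.5, 97.5 and 91.0 against 70.5, 69.7 and 71.1 CPM. Its falls were smaller but tight, -0.43 ± 0.05 (edgeR adjusted p = 1.9e-05) and -0.39 ± 0.05 (edgeR adjusted p = 5.1e-05) on the log2 scale. Dtx3l, the E3 ubiquitin ligase partner of PARP9 (chr16:35926511-35939151, minus strand), read 10.0, 10.2 and 10.9 against 8.39, 6.93 and 7.86 CPM in ethanol, and 14.5, 13.4 and 14.5 against 10.5, 10.2 and 10.9 CPM in rapamycin. Its log2 fold changes were -0.42 ± 0.08 (edgeR adjusted p = 9.6e-04) and -0.43 ± 0.08 (edgeR adjusted p = 8.4e-04). Dtx3l overlaps Parp9 on the other strand, and 86.1% of its bases remain countable if strand was ignored. All 6 of these calls held without any single library.

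Among the sensors of foreign nucleic acid, Ddx58, which encodes the RNA helicase RIG-I, fell in both media with little spread. It read 53.7, 54.3 and 56.8 CPM with the Luc siRNA and 43.8, 42.2 and 41.1 CPM with the Crebl2 siRNA in ethanol. In rapamycin Ddx58 read 72.6, 68.8 and 76.6 against 55.3, 54.0 and 54.7 CPM. No Crebl2 library reached a Luc library of the same medium, and the log2 fold changes were -0.37 ± 0.05 (edgeR adjusted p = 2.7e-05) and -0.41 ± 0.05 (edgeR adjusted p = 1.1e-05). Both held without any single library. Zbp1, a sensor of Z-form nucleic acid, was low: it read 0.664, 0.594 and 0.495 CPM in Luc libraries and 0.331, 0.300 and 0.240 CPM with the Crebl2 siRNA in ethanol. In rapamycin Zbp1 read 0.499, 0.655 and 0.470 against 0.186, 0.290 and 0.365 CPM. These groups did not overlap, and the log2 fold changes were -1.01 ± 0.28 (edgeR adjusted p = 0.0096) and -0.96 ± 0.29 (edgeR adjusted p = 0.019). The Zbp1 call in rapamycin was lost without Luc library 2 (-0.77), Crebl2 library 1 (-0.70) or Crebl2 library 2 (-0.97), and both Zbp1 calls were lost in DESeq2 (adjusted p = 0.059 in ethanol and 0.1 in rapamycin). Tested on its most abundant transcript alone, Zbp1 also missed the threshold in ethanol (-0.86). Ifih1, the gene of the long-RNA sensor MDA5, passed in rapamycin and not in ethanol (log2 fold change -1.07 ± 0.33, edgeR adjusted p = 0.022), with all libraries between 0.145 and 0.932 CPM. The Ifih1 call was lost without Luc library 2 (-0.89), Luc library 3 (-1.03) or Crebl2 library 2 (-0.67) of that comparison. Dhx58, the gene of LGP2, passed in no contrast and lay between 1.17 and 2.52 CPM.

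The guanylate-binding proteins are interferon-induced GTPases that attack pathogen membranes, and both tested genes, which lie near each other on chr3, fell. Gbp2 (chr3:142620602-142638008, plus strand) read 6.89, 7.47 and 6.54 CPM with the Luc siRNA and 4.56, 5.55 and 3.64 CPM with the Crebl2 siRNA in ethanol. In rapamycin Gbp2 read 11.5, 10.8 and 10.8 against 8.47, 8.79 and 8.15 CPM. The groups did not overlap, and Gbp2 fell by 0.61 ± 0.12 (edgeR adjusted p = 9.9e-04) and 0.38 ± 0.11 (edgeR adjusted p = 0.018) on the log2 scale. The rapamycin call of Gbp2 was lost without any one of the 6 libraries compared, although the log2 fold change then stayed between -0.38 and -0.32. Gbp7 (chr3:142530342-142550149, plus strand) read 1.28, 1.62 and 1.48 against 1.10, 0.870 and 0.671 CPM in ethanol and 2.38, 1.76 and 2.65 against 1.17, 1.10 and 0.973 CPM in rapamycin. Its log2 fold changes were -0.73 ± 0.21 (edgeR adjusted p = 0.012) and -1.06 ± 0.20 (edgeR adjusted p = 7.0e-04), the first of which was lost without Crebl2 ethanol library 3 (-0.56, edgeR adjusted p = 0.064). The Gbp genes resemble each other closely, and how shared reads were divided is not given in the sources used here. Bst2, the gene of tetherin, fell in ethanol from between 20.0 and 24.3 CPM to between 17.4 and 19.0 CPM (log2 fold change -0.27 ± 0.09, edgeR adjusted p = 0.022), a call lost without Luc ethanol library 1 (-0.19) or Crebl2 ethanol library 2 (-0.23). Xaf1, an apoptosis-linked gene, fell in rapamycin from between 3.77 and 4.26 CPM to between 2.68 and 3.42 CPM (log2 fold change -0.41 ± 0.13, edgeR adjusted p = 0.023). The Xaf1 call was lost without Luc rapamycin library 2 (-0.34) or 3 (-0.36) or Crebl2 rapamycin library 1 (-0.38) or 3 (-0.29), in DESeq2 (adjusted p = 0.058), and with no count filter (-0.38). Ifi35 (46.3 to 55.7 CPM over all libraries) and Ifi44 (0.264 to 0.940 CPM) passed in neither siRNA contrast.

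Antigen presentation genes were lower as well, though with weaker support. B2m read 936, 987 and 935 CPM with the Luc siRNA and 807, 825 and 870 CPM with the Crebl2 siRNA in ethanol, without overlap (log2 fold change -0.19 ± 0.04, edgeR adjusted p = 0.0016), and this held without any single library. In rapamycin B2m read 901, 902 and 903 against 892, 878 and 897 CPM and did not pass, with an interval of -0.11 to 0.07. Psmb8, a catalytic subunit of the immunoproteasome, read 0.861, 0.571 and 0.467 against 0.408, 0.150 and 0.240 CPM in ethanol and 0.444, 0.630 and 0.608 against 0.345, 0.232 and 0.213 CPM in rapamycin. These low groups did not overlap, and Psmb8 fell by 1.23 ± 0.34 (edgeR adjusted p = 0.011) and 1.07 ± 0.36 (edgeR adjusted p = 0.033) on the log2 scale. The ethanol call of Psmb8 was lost without Luc ethanol library 1 (-0.94), and the rapamycin call without Luc rapamycin library 2 (-0.94) or 3 (-0.98) or Crebl2 rapamycin library 2 (-0.96) or 3 (-0.91), and in DESeq2 (-1.05, adjusted p = 0.081). Psmb9, its partner subunit, fell by 0.67 ± 0.25 in ethanol (edgeR adjusted p = 0.047) and by 0.75 ± 0.27 in rapamycin (edgeR adjusted p = 0.048), with levels of 0.459 to 1.35 CPM. Both Psmb9 calls stood next to the threshold and were lost in DESeq2 (adjusted p = 0.099 and 0.095). The ethanol call was also lost without any one Luc ethanol library or Crebl2 ethanol library 1 or 2, at log2 fold changes between -0.71 and -0.40, and in a fit of the compared groups alone (-0.70). The rapamycin call was lost without any one library other than Crebl2 ethanol library 1 or 3, at -0.84 to -0.61, with RLE scaling (-0.72) and on the most abundant transcript (-0.71). Psmb8, Psmb9 and Tap1 adjoin on chr17 on different strands, so without a stated strand setting their reads are uncertain.

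The RNA-binding effectors were mixed. Oasl2, a 2'-5'-oligoadenylate synthetase-like antiviral gene, read 5.98, 5.42 and 7.01 CPM with the Luc siRNA and 5.81, 3.96 and 3.93 CPM with the Crebl2 siRNA in ethanol. In rapamycin Oasl2 read 6.93, 8.42 and 8.68 against 5.02, 5.16 and 4.68 CPM. The ethanol groups overlapped and the rapamycin groups did not, and Oasl2 fell by 0.42 ± 0.15 (edgeR adjusted p = 0.038) and 0.69 ± 0.15 (edgeR adjusted p = 0.0021) on the log2 scale. Its ethanol call was lost without Luc library 1 (-0.44) or 3 (-0.31) or Crebl2 library 2 (-0.33) or 3 (-0.32), and in a fit of the compared groups alone (-0.45). Samd9l, an antiviral inhibitor of translation, read 33.6, 39.9 and 37.0 against 26.6, 33.4 and 25.8 CPM in ethanol and 45.9, 39.4 and 47.4 against 41.0, 32.6 and 33.8 CPM in rapamycin, where the groups overlapped. Samd9l fell by 0.37 ± 0.11 (edgeR adjusted p = 0.014) and 0.30 ± 0.11 (edgeR adjusted p = 0.04). The Samd9l call in ethanol was lost without Luc library 2 (-0.30) or Crebl2 library 1 (-0.32) or 3 (-0.30), and in rapamycin without Luc library 1 (-0.24) or 3 (-0.22) or Crebl2 library 2 (-0.21) or 3 (-0.23), with RLE scaling (-0.27) and on the most abundant transcript (-0.27). Eif2ak2, the gene of the kinase PKR, passed in no contrast and lay between 74.3 and 94.9 CPM.

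The 3 tested Ifit genes encode RNA-binding proteins that block translation of viral RNA and lie in 1 cluster on chr19. They did not move as a group. Ifit1 was the only one of the 30 genes that rose with the Crebl2 siRNA in ethanol. It read 5.09, 4.52 and 5.03 CPM with the Luc siRNA and 9.69, 7.23 and 7.77 CPM with the Crebl2 siRNA, without overlap (log2 fold change 0.76 ± 0.26, edgeR adjusted p = 0.031). The Ifit1 call was lost without Luc ethanol library 1 (0.79), 2 (0.70) or 3 (0.78), without Crebl2 ethanol library 1 (0.62) or 3 (0.80), and in DESeq2 (adjusted p = 0.066). In rapamycin Ifit1 read 4.35, 3.15 and 8.85 against 7.33, 6.41 and 5.35 CPM, with Luc library 3 above all 5 others. Ifit2 read 54.6, 56.9 and 60.4 against 51.0, 55.6 and 52.1 CPM in ethanol, where the groups overlapped and the test was not passed. In rapamycin Ifit2 read 51.4, 46.2 and 49.5 against 41.1, 39.4 and 40.5 CPM, a fall without overlap (log2 fold change -0.28 ± 0.06, edgeR adjusted p = 0.0011) that held without any single library. Ifit3 read 5.85, 6.30 and 6.82 against 6.32, 3.87 and 4.27 CPM in ethanol, and 6.10, 5.24 and 8.16 against 4.41, 3.77 and 4.14 CPM in rapamycin. It fell by the test in rapamycin and did not pass in ethanol (log2 fold change -0.66 ± 0.18, edgeR adjusted p = 0.011), and that call was lost without Luc rapamycin library 3 (-0.43) or Crebl2 rapamycin library 2 (-0.57). Ifit1 and Ifit3 have near copies in the same cluster, so their counts are uncertain to that extent.

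**Figure D3:**
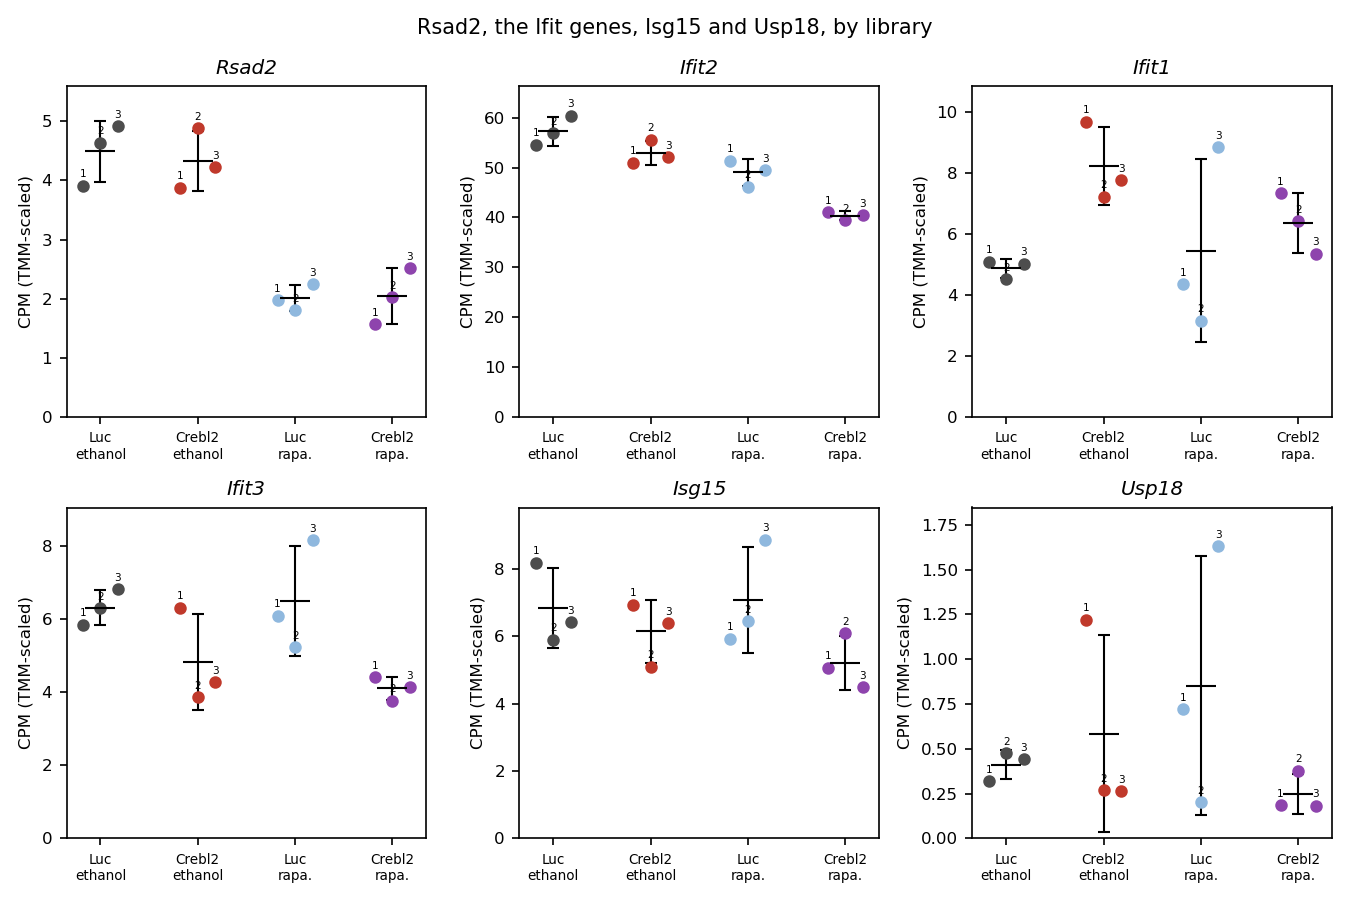
CPM (TMM-scaled) in each library for Rsad2, Ifit2, Ifit1, Ifit3, Isg15 and Usp18, with the replicate number beside each point and the mean and SD of 3 libraries as bars. Rsad2 separates ethanol (3.88 to 4.92 CPM) from rapamycin (1.57 to 2.52 CPM) with both siRNAs, whereas Ifit1, Ifit3, Isg15 and Usp18 are highest within their group in Luc rapamycin library 3 and Crebl2 ethanol library 1.

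Of the ISG15 system genes among the 40, the 2 tested, Isg15 and Usp18, did not pass in any contrast. Isg15, the ubiquitin-like modifier, read 8.19, 5.90 and 6.43 CPM in Luc ethanol, 6.94, 5.10 and 6.40 in Crebl2 ethanol, 5.93, 6.45 and 8.88 in Luc rapamycin and 5.07, 6.09 and 4.50 in Crebl2 rapamycin. Usp18, the protease that removes ISG15 and restrains the interferon receptor, read 0.320, 0.476 and 0.440 CPM in Luc ethanol and 1.22, 0.270 and 0.264 CPM in Crebl2 ethanol. In rapamycin Usp18 read 0.721, 0.202 and 1.63 CPM with the Luc siRNA and 0.186, 0.377 and 0.182 CPM with the Crebl2 siRNA. In both genes the spread within a group was as wide as the distance between groups, as the plot of the Ifit genes, Isg15 and Usp18 shows. Luc rapamycin library 3 was the highest of its group for 17 of the 30 genes and the lowest for 2, and Luc rapamycin library 1 was the lowest for 16. In ethanol, Crebl2 library 1 was the highest of its group for 16 genes and Luc library 1 for 14. Both genes and Ifit1 were picked for this description after their values were seen. Without Luc rapamycin library 3, the number of genes that fell with the Crebl2 siRNA in rapamycin was 9 instead of 16, and it was also 9 without Crebl2 rapamycin library 2. The 3 tested transcription factor genes, Irf1, Irf7 and Irf9, were also not called in any contrast, at levels of 0.210 to 0.467 CPM for Irf1, 0.111 to 0.408 CPM for Irf7 and 0.885 to 1.55 CPM for Irf9 on small countable shares.

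**Figure D4:**
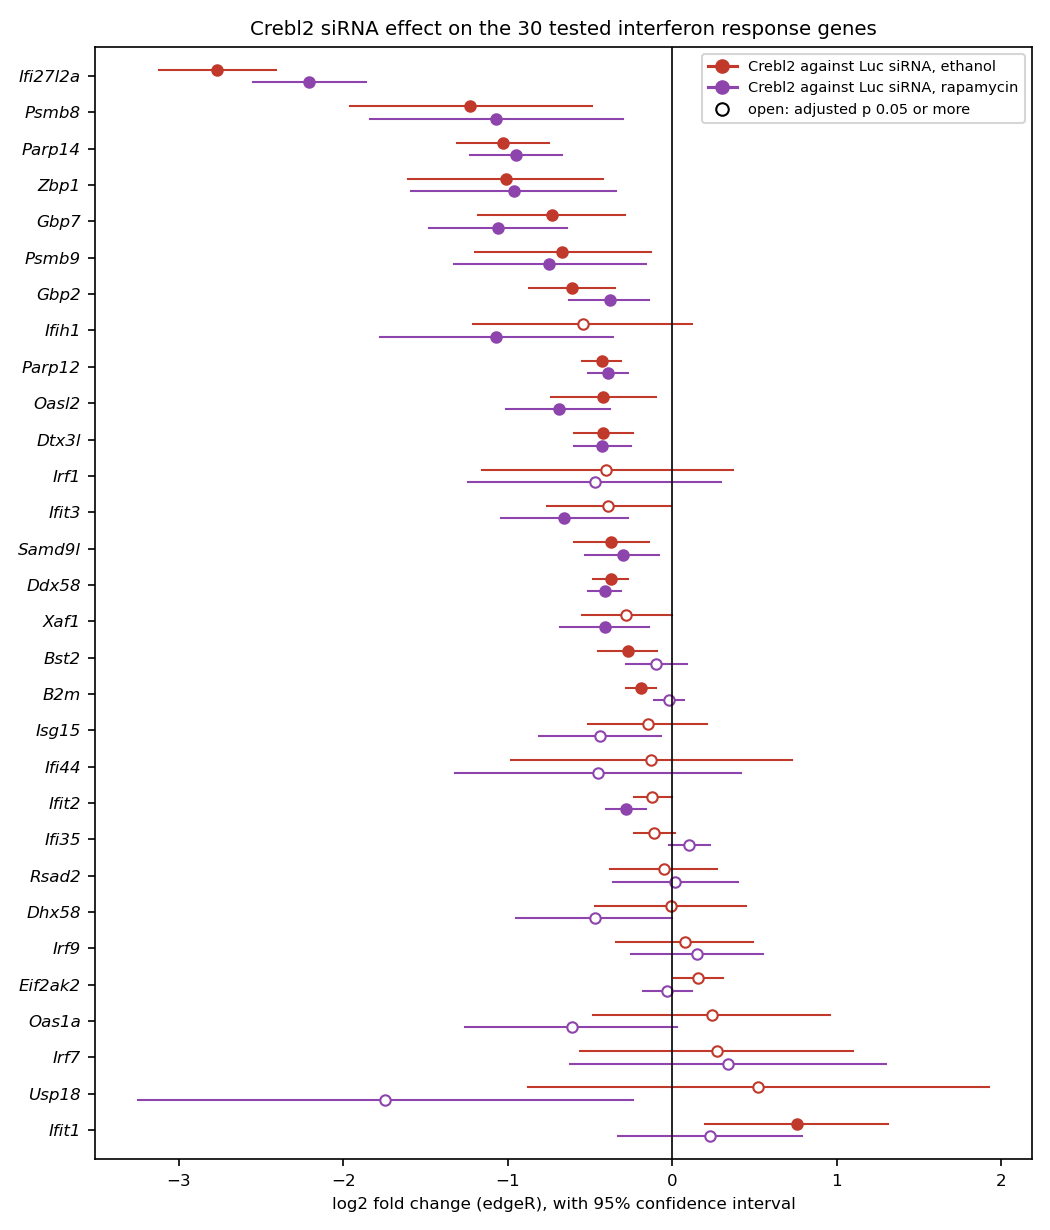
log2 fold change of the Crebl2 siRNA against the Luc siRNA with its 95% confidence interval for each of the 30 tested interferon response genes, in ethanol and in rapamycin. Filled points passed at an adjusted p under 0.05. Ifi27l2a lies lowest at -2.77 and -2.21, and Ifit1 in ethanol (0.76) is the only filled point above 0.

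The plot of siRNA fold changes sets the 2 media side by side: most points lie below 0 in both, and the widest intervals belong to genes of low level such as Usp18. Without any single library, the 5 genes whose falls passed in every such refit of both contrasts were Ifi27l2a, Parp14, Parp12, Dtx3l and Ddx58.

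Rapamycin raised some of the interferon response genes and lowered others. With the Luc siRNA 8 of the 30 genes rose (26.7%) and 2 fell (6.67%), where 41.1% of all genes changed, 19.5% higher and 21.6% lower. With the Crebl2 siRNA 7 rose (23.3%) and 2 fell (6.67%), where 45.3% of all genes changed, 19.7% higher and 25.6% lower. The shares that rose were thus near the background. Of the 22 genes that reached the filter rate in every library, 7 rose and 2 fell with either siRNA. The median log2 fold change of the 30 genes was 0.12 and 0.04, against 0.02 and -0.01 over all tested genes. The 2 rapamycin contrasts share no library. Ddx58, Dtx3l, Gbp2 and Parp12 rose in both, which is 4 of 8 and 4 of 7 genes (57.1%), against 73.3% and 72.3% over all genes. Ifit2 and Rsad2 fell in both. Parp14, Samd9l and Ifi35 rose with the Crebl2 siRNA, and Gbp7, Oasl2, Oas1a and Xaf1 with the Luc siRNA.

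Rsad2, which encodes viperin, an enzyme that makes a chain-terminating nucleotide against viral RNA polymerases (chr12:26442746-26456452, minus strand), fell most. It read 3.91, 4.64 and 4.92 CPM in ethanol and 1.97, 1.81 and 2.24 CPM in rapamycin with the Luc siRNA. With the Crebl2 siRNA it read 3.88, 4.89 and 4.22 CPM in ethanol and 1.57, 2.03 and 2.52 CPM in rapamycin. Every rapamycin library lay below every ethanol library, and the 2 siRNAs overlapped in each medium. Rsad2 fell by 1.16 ± 0.16 (edgeR adjusted p = 3.4e-05) with the Luc siRNA and by 1.09 ± 0.17 (edgeR adjusted p = 5.8e-05) with the Crebl2 siRNA on the log2 scale. Ifit2, whose library values are given above, fell by 0.23 ± 0.05 (edgeR adjusted p = 0.0037) and by 0.39 ± 0.06 (edgeR adjusted p = 3.0e-05), again without overlap. These 4 calls held without any single library. Their relatives in role, Ifit1 and Ifit3, did not pass in either rapamycin contrast, and the difference between genes was not tested.

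Among the genes that rose with both siRNAs, Ddx58 rose by 0.40 ± 0.05 with the Luc siRNA (edgeR adjusted p = 6.4e-06) and by 0.37 ± 0.05 with the Crebl2 siRNA (edgeR adjusted p = 1.6e-05) on the log2 scale. Its rapamycin libraries with the Crebl2 siRNA lay at 54.0 to 55.3 CPM, within the range of the Luc ethanol libraries at 53.7 to 56.8 CPM. Dtx3l rose by 0.45 ± 0.08 (edgeR adjusted p = 3.6e-04) and 0.44 ± 0.08 (edgeR adjusted p = 4.8e-04), and Gbp2 by 0.66 ± 0.12 (edgeR adjusted p = 2.5e-04) and 0.89 ± 0.12 (edgeR adjusted p = 1.9e-05). The ethanol and rapamycin groups of these 3 genes did not overlap with either siRNA, and their 6 calls held without any single library. Parp12 rose by 0.16 ± 0.05 (edgeR adjusted p = 0.027) and 0.20 ± 0.05 (edgeR adjusted p = 0.0076). The first Parp12 call was lost without 7 of the 12 libraries in turn, at log2 fold changes between 0.09 and 0.14 then: Luc ethanol library 2 or 3, Luc rapamycin library 2 or 3, or any Crebl2 rapamycin library. It was also lost with no count filter (0.12) and on the most abundant transcript (0.13). The siRNA contrasts and the rapamycin contrasts share libraries, so the values of a gene in the 4 contrasts are not independent of each other.

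The remaining rises were less secure. Gbp7 rose by 0.63 ± 0.19 with the Luc siRNA (edgeR adjusted p = 0.013), a call lost without Luc ethanol library 1 (0.54) or Luc rapamycin library 1 (0.56) or 3 (0.48). Oasl2 rose by 0.39 ± 0.15 (edgeR adjusted p = 0.044) with overlapping groups and Xaf1 by 0.34 ± 0.13 (edgeR adjusted p = 0.04), both with the Luc siRNA. The Oasl2 call was lost without Luc ethanol library 1 or 2, Luc rapamycin library 2 or 3 or any one Crebl2 rapamycin library, at log2 fold changes of 0.30 to 0.37, and on the most abundant transcript (0.35). The Xaf1 call was lost without any one Luc ethanol, Luc rapamycin or Crebl2 rapamycin library, at 0.28 to 0.37, in DESeq2 (adjusted p = 0.089), with no count filter (0.30) and on the most abundant transcript (0.31). Oas1a, a synthetase of 2'-5'-oligoadenylate, read 0.246, 0.262 and 0.220 CPM in Luc ethanol and 0.360, 0.428 and 0.664 CPM in Luc rapamycin. With the Crebl2 siRNA Oas1a read 0.331, 0.210 and 0.312 CPM in ethanol and 0.319, 0.261 and 0.365 CPM in rapamycin. The Luc groups stood apart and the Crebl2 groups overlapped. The Luc comparison gave a log2 fold change of 0.98 ± 0.31 (edgeR adjusted p = 0.018), which was lost without Luc ethanol library 3 (0.92) or Luc rapamycin library 3 (0.67) and in DESeq2 (adjusted p = 0.1). With the Crebl2 siRNA, Parp14 rose by 0.38 ± 0.14 (edgeR adjusted p = 0.034), Samd9l by 0.33 ± 0.11 (edgeR adjusted p = 0.022) and Ifi35 by 0.18 ± 0.06 (edgeR adjusted p = 0.022). Parp14 was lost without Crebl2 ethanol library 2 (0.32) or 3 (0.30) or Crebl2 rapamycin library 2 (0.37), Samd9l without Crebl2 ethanol library 1 (0.28) or 3 (0.26) or Crebl2 rapamycin library 1 (0.25), and Ifi35 without Crebl2 ethanol library 1 (0.16) or 2 (0.16). Without Luc rapamycin library 3, 3 genes rose with the Luc siRNA instead of 8, and 5 rose without Luc ethanol library 1 or 3 or without any one Crebl2 rapamycin library.

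**Figure D5:**
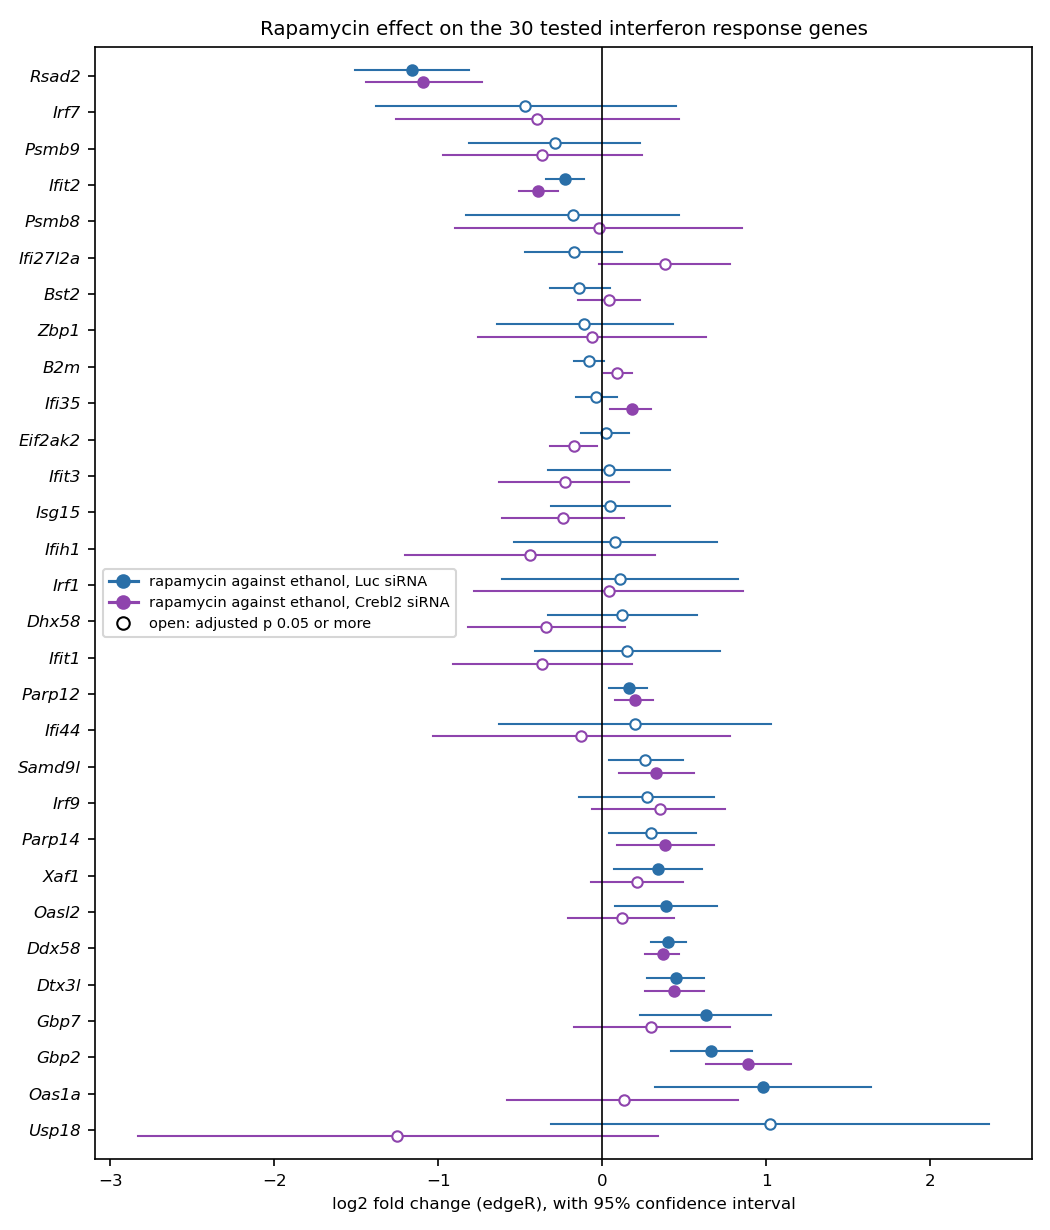
log2 fold change of rapamycin against ethanol with its 95% confidence interval for each of the 30 tested interferon response genes, with the Luc and with the Crebl2 siRNA. Filled points passed at an adjusted p under 0.05. Rsad2 lies lowest among the filled points with both siRNAs (-1.16 and -1.09), and Gbp2 (0.66 and 0.89) lies highest among those filled for both.

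The plot of rapamycin fold changes sets the 2 siRNAs side by side. The changes were alike for Ddx58, Dtx3l and Rsad2, and of opposite sign for genes such as Usp18, Ifih1 and Ifi27l2a. Whether rapamycin acted differently with the Crebl2 siRNA was tested as the interaction, the difference between the 2 rapamycin changes (Crebl2 siRNA less Luc siRNA). By edgeR, 0 of the 30 genes passed, where 1.20% of all genes did (0.611% above and 0.589% below 0), and the smallest adjusted p was 0.18. DESeq2 gave an adjusted p for 18 of the 40 genes, and 1 passed, B2m, where 377 of 8564 genes passed in all. At an unadjusted p under 0.05 by edgeR, 4 of the 30 genes passed: B2m, Ifi27l2a, Ifi35 and Usp18. The share of all genes at that threshold was not counted. For B2m the interaction was 0.17 ± 0.06 with an interval of 0.05 to 0.29 on the log2 scale, and for Ifi27l2a it was 0.56 ± 0.23 with an interval of 0.06 to 1.06. For Ddx58 the interval was -0.18 to 0.11, for Parp12 -0.12 to 0.20 and for Rsad2 -0.43 to 0.57. Differences within these ranges were not excluded.

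The rest of the pathway was read from lists of other genes. Of 37 genes for interferons, receptors and signalling, 22 were tested, and with the Crebl2 siRNA 3 rose and 3 fell in ethanol (13.6% each) and 2 rose (9.09%) and 5 fell (22.7%) in rapamycin. Over all genes 21.4% rose and 17.0% fell in ethanol, and 16.3% rose and 16.8% fell in rapamycin. Tyk2, the kinase on the receptor chain IFNAR1, read 159 ± 5.58 CPM (SD, n = 3) in Luc ethanol and 109 ± 4.30 CPM in Crebl2 ethanol, and fell in both media by 0.54 ± 0.05 and 0.47 ± 0.04 on the log2 scale (edgeR adjusted p = 2.7e-07 and 1.2e-06). Jak1, the partner kinase, rose from 435 ± 18.2 to 534 ± 20.0 CPM in ethanol, by 0.30 ± 0.04 (edgeR adjusted p = 9.4e-05), and by 0.23 ± 0.04 in rapamycin (edgeR adjusted p = 0.0011). Socs3, a feedback inhibitor of cytokine receptors, fell by 0.42 ± 0.05 and 0.57 ± 0.05 (edgeR adjusted p = 1.9e-05 and 9.8e-07). Rapamycin raised 6 of the 22 genes with either siRNA (27.3%, against 19.5% and 19.7% of all genes) and lowered 3 with the Luc (13.6%, against 21.6%) and 4 with the Crebl2 siRNA (18.2%, against 25.6%). Tyk2 was among those that rose with rapamycin, by 0.30 ± 0.04 and 0.37 ± 0.05 (edgeR adjusted p = 6.0e-05 and 5.9e-06), and so was Ifnar1, by 0.16 ± 0.04 and 0.23 ± 0.04 (edgeR adjusted p = 0.0083 and 6.2e-04). Ifnar1 was countable on only 29.1% of its exonic bases. The Ifnar1 call with the Luc siRNA was lost without Luc rapamycin library 1 (0.13) or 2 (0.11) and with no count filter (0.12).

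Of 76 other interferon-inducible genes, 47 were tested. With the Crebl2 siRNA 17 fell (36.2%) and 2 rose in ethanol, and 12 fell (25.5%) and 4 rose in rapamycin, where 17.0% and 16.8% of all genes fell. Uba7, the enzyme that activates ISG15, read 11.0 ± 0.380 CPM (SD, n = 3) in Luc ethanol and 4.69 ± 0.0719 CPM in Crebl2 ethanol, and fell by 1.23 ± 0.09 and 1.05 ± 0.09 on the log2 scale in the 2 media (edgeR adjusted p = 5.1e-08 and 2.4e-07). Among the genes of this list that serve MHC class I presentation, H2-D1, a heavy chain, fell by 0.49 ± 0.05 and 0.50 ± 0.05 (edgeR adjusted p = 5.0e-06 and 5.4e-06) in the 2 media, Tap2, a peptide transporter subunit, by 0.54 ± 0.07 and 0.61 ± 0.07 (edgeR adjusted p = 2.4e-05 and 7.0e-06), and Tapbp, tapasin, by 0.25 ± 0.04 and 0.31 ± 0.04 (edgeR adjusted p = 3.1e-04 and 6.8e-05), whereas Tapbpl, a tapasin relative, passed in neither (0.17 ± 0.10 and 0.04 ± 0.10). Psmb10, an immunoproteasome subunit gene of the list, read 28.8 ± 2.71 CPM with the Luc and 23.5 ± 1.75 CPM with the Crebl2 siRNA in ethanol. In rapamycin Psmb10 hardly differed, at 23.5 ± 2.16 against 22.8 ± 3.20 CPM (SD, n = 3). H2 genes share long stretches of sequence, so the split of reads among them is uncertain. Rapamycin raised 14 of the 47 genes with the Luc siRNA (29.8%) and 15 with the Crebl2 siRNA (31.9%), and lowered 9 (19.1%) and 7 (14.9%), beside the shares over all genes given above. Irgm1, an immunity-related GTPase linked to autophagy, rose from 104 ± 2.45 CPM in Luc ethanol to 207 ± 8.56 CPM in Luc rapamycin, by 1.00 ± 0.05 (edgeR adjusted p = 9.4e-10), and rose by 1.14 ± 0.05 with the Crebl2 siRNA (edgeR adjusted p = 1.8e-10).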

How the data were processed

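Total RNA libraries (a stranded TruSeq kit, per the labels) of 4 groups of 3 were deposited by the authors as whole-number read counts for 58611 Ensembl transcripts, with no normalization. Trim Galore, TopHat, HTSeq and the builds mm9 and GRCm38 are named in the submitters' processing notes, and the annotation release and the strand setting are not given in the sources used here. Of the transcript identifiers, 58264 (99.41%) matched GENCODE M21 on GRCm38, which gave names and coordinates, and the unmatched ones held 0.0382% of the reads. Counts per gene had been assumed for the tests, and the transcript counts were therefore added up, giving 38481 genes. Of 8480 protein-coding transcripts that own no exonic base, 99.33% had no read, against 32.05% of 31661 others. Reads shared between transcripts are therefore missing.

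Genes passing the filter of edgeR 4.0.16 at a minimum count of 10 (13247) were TMM-scaled and tested by the quasi-likelihood test in R 4.3.3, with 4 group means over all 12 libraries and Benjamini-Hochberg adjustment over all tested genes. The common biological variation came to 6.9%. Genes were called at an adjusted p under 0.05, and ± is a standard error unless SD is written. Library values were given for the 16 of the 40 genes with the smallest adjusted p in any of 5 contrasts, and other genes are named where a count or a list turns on them. The 40 genes, the pathway lists, the marker lists and the tests were chosen with earlier results of these data known. Samples were grouped by the siRNA and treatment in the labels. Same-numbered libraries deviated together (a correlation over 0.1) in 2 of 18 pairs, so the numbers were not taken to pair the libraries. The fit was tested on simulated data. Alternatives were RLE scaling, DESeq2 1.42.0, 2 other count filters, a replicate block, a fit of the compared groups, the most abundant transcript of each gene, and leaving out each library. Some genes of the pathway lists are not reported here.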

Additional observations from a re-analysis of the deposited data

Results flagged for a closer look

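B2m was flagged when the 30 tested genes were searched for opposite changes without overlap of groups. Its rapamycin changes had opposite signs under the 2 siRNAs, and the share of all genes with this pattern was not counted. With the Luc siRNA all 3 rapamycin libraries (901 to 903 CPM) lay below all 3 ethanol libraries (935 to 987 CPM), and with the Crebl2 siRNA all 3 rapamycin libraries (878 to 897 CPM) lay above all 3 ethanol libraries (807 to 870 CPM). The difference between the 2 rapamycin changes was 0.17 ± 0.06 on the log2 scale (edgeR interaction adjusted p = 0.18), and it passed in DESeq2 at 0.19 (adjusted p = 0.017). By DESeq2 the interaction passed for 377 of 8564 genes. The 2 changes themselves were -0.08 ± 0.04 and 0.09 ± 0.04 and did not pass (edgeR adjusted p = 0.14 and 0.079).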

How the results depend on the processing

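When each library was left out in turn, 30 to 32 of the 40 genes passed the count filter. In ethanol, 10 to 15 of them then fell with the Crebl2 siRNA and 0 to 1 rose. In rapamycin 9 to 17 fell and 0 to 1 rose. Over all genes, 4286 to 5032 changed in ethanol and 3460 to 4549 in rapamycin in these refits, in either direction. With rapamycin and the Luc siRNA 3 to 9 rose and 2 to 3 fell, and with the Crebl2 siRNA 5 to 8 rose and 2 to 3 fell. The interaction stayed at 0 to 0 in both directions. The Crebl2 knockdown ranged from -2.20 to -1.91 in ethanol and from -1.99 to -1.87 in rapamycin on the log2 scale. By DESeq2, 0 genes instead of 1 rose with the Crebl2 siRNA in ethanol and the interaction was above 0 for 1 gene (B2m). With the most abundant transcript of each gene, 5 instead of 8 rose with rapamycin and the Luc siRNA. With no count filter, 5 instead of 2 fell with rapamycin and the Crebl2 siRNA, and the interaction was below 0 for 1 gene (Usp18). The cause of these differences was not tested. Of 50 calls of single genes, 93 of 600 refits without 1 library and 28 of 342 other alternatives lost the call, and none of them reversed its direction.

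With the replicate block, 13 genes fell in ethanol and 14 in rapamycin with the Crebl2 siRNA, and 6 rose with rapamycin under either siRNA. The calls lost were Oasl2 in ethanol (-0.42), Samd9l (-0.30) and Psmb9 (-0.74) in rapamycin, Oasl2 (0.39) and Xaf1 (0.34) with rapamycin and the Luc siRNA, and Parp14 (0.38) with rapamycin and the Crebl2 siRNA. Correlations of same-numbered libraries ranged from -0.29 to 0.12, and 3 of 12 libraries were closest to their own number. Over all genes the interaction passed for 159 genes, for 377 by DESeq2, for 415 with no count filter and for 91 with the block. RLE scaling shifted no median of all genes by more than 0.03. The interaction could not be fitted from compared groups alone. Low counts limit Usp18, Irf1, Irf7, Oas1a, Zbp1 and Psmb8, whose levels lay near the filter rate. The 10 untested genes, countable on 0.0% to 26.6% of their exonic bases, were below the count filter and were not judged.

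Direction changed for 18 values of named genes that had not passed, in 61 refits. Leaving out 1 library moved the siRNA log2 fold change of Rsad2 over -0.15 to 0.02 in ethanol and -0.12 to 0.22 in rapamycin, and that of B2m in rapamycin over -0.02 to 0.02. The rapamycin change with the Luc siRNA ranged over -0.18 to 0.14 for Ifit3 and -0.34 to 0.11 for Psmb8. Under the Crebl2 siRNA it ranged over -0.36 to 0.01 for Ifit3, -0.03 to 0.26 for Oas1a, -0.26 to 0.21 for Zbp1 and -0.27 to 0.41 for Psmb8. The interaction ranged over -0.01 to 0.23 for Parp14, -0.01 to 0.14 for Parp12, -0.08 to 0.07 for Dtx3l, -0.06 to 0.06 for Ddx58, -0.04 to 0.29 for Rsad2, -0.01 to 0.19 for Samd9l, -0.12 to 0.34 for Zbp1 and -0.13 to 0.59 for Psmb8. B2m in the siRNA contrast in rapamycin turned to 0.01 with RLE scaling, DESeq2 or no count filter and to 0.02 on the most abundant transcript. On that transcript, rapamycin changed Zbp1 by 0.03 with the Luc siRNA and Psmb8 by 0.01 with the Crebl2 siRNA, and the interaction of Zbp1 was -0.13. The interaction of Ddx58 turned to 0.02 with no count filter and to 0.02 on the most abundant transcript. That of Dtx3l turned to 0.02 with RLE scaling, 0.01 by DESeq2, 0.05 with no count filter, 0.01 at a minimum count of 50 and 0.06 on the most abundant transcript. The cause was not tested.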
